A study of Homo sapiens with 12 samples.

Results

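A set of 10 genes of protein folding and stress in the endoplasmic reticulum (ER) is described here across copper chelation and low oxygen in EA.hy926 cells: HSPA5, HSP90B1, DNAJB9, SDF2L1, CALR, PDIA4, ERO1L, CRELD2, HERPUD1 and XBP1. They were taken by symbol from a table of messenger RNA counts, and all 10 of the 10 symbols were found among its 51141 rows. EA.hy926 is an established human line, a hybrid of endothelium from the umbilical vein and the lung carcinoma line A549, and all groups share it. The 12 libraries form 4 groups of 3. Control cells received no TEPA and no hypoxia, and the hypoxia group spent 8 h at 1% oxygen. The TEPA group received 50 µM TEPA (a chelator of copper) for 16 h and then a further 8 h at normal oxygen, and the TEPA+hypoxia group received the same TEPA treatment followed by 8 h at 1% oxygen. By its title, the series asks how copper bears on transcription through HIF-1, the factor that drives much of the response to low oxygen.

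The ER is where secreted and membrane proteins fold, are glycosylated and form disulphide bonds. When unfolded proteins build up there, the sensors IRE1 (gene ERN1), PERK (gene EIF2AK3) and ATF6 start the unfolded protein response, which raises chaperones, folding enzymes and the machinery that sends misfolded proteins for degradation. Endothelial cells secrete and display many disulphide-bonded proteins, and forming those bonds uses oxygen through the ERO1 oxidases.

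The promoters of these genes are shown first, because a shared DNA element in them is the textbook link between the genes and the unfolded protein response. That element, ERSE, is bound by ATF6 and XBP1 together with NF-Y and is written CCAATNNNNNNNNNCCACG; its shorter form, ERSE-II, is written ATTGGNCCACG. RefSeq promoter windows (GRCh38.p14, the 250 bases before each gene start, both strands searched) were found for all 10 genes, 12 windows in all because PDIA4 and XBP1 have 2 each. ERSE was present in 5 of the 12 windows and ERSE-II in 2 others, against 0.0740% and 0.0513% of all 35116 RefSeq windows of the same length; the second window of XBP1 held neither. The 7 genes with a match are printed 5′ to 3′ on the gene's strand with 20 bases on each side, and capitals mark the paired boxes. An ERSE reads CCAAT then CCACG, or CGTGG then ATTGG where it lies on the other strand. An ERSE-II reads ATTGG then CCACG in HERPUD1, and CGTGG then CCAAT, the other strand, in SDF2L1.
HSPA5, chr9:125241371-125241429, minus strand: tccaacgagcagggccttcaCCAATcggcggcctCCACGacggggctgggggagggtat
HSP90B1, chr12:103930196-103930359, plus strand, 2 matches: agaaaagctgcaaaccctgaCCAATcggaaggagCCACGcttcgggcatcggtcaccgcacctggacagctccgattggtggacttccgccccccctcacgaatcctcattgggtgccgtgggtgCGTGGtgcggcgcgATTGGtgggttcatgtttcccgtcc
XBP1, chr22:28800583-28800641, minus strand: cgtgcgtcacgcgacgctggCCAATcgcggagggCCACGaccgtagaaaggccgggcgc
CALR, chr19:12938364-12938422, plus strand: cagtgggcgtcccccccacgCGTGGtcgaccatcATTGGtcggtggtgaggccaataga
CRELD2, chr22:49918534-49918592, plus strand: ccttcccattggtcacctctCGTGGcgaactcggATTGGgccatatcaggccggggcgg
HERPUD1, ERSE-II, chr16:56932005-56932055, plus strand: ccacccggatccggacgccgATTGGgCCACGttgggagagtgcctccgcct
SDF2L1, ERSE-II, chr22:21642094-21642144, plus strand: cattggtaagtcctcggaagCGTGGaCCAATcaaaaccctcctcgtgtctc
Neither spelling was found in the windows of PDIA4, ERO1L and DNAJB9. Shorter spellings were also searched, and they can overlap each other and the ERSE boxes. TGACGTGG, the core of the XBP1 element UPRE, was in 0 of the 12 windows and in 0.612% of all windows. TTGCATCA, a core bound by ATF4 and its partners, was in the HERPUD1 window and in 0.772% of all. ACGTG, the core of the HIF element, was in 6 of the 12 windows (1 each of HSP90B1, ERO1L, PDIA4, XBP1, DNAJB9 and HERPUD1) and in 18.5% of all. Of 117 further ER genes described below, 103 had a window, 135 windows in all. ERSE was in 4 of these windows, ERSE-II in 1, TGACGTGG in 8, TTGCATCA in 2 and ACGTG in 51.

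Counts of a library summed to between 13406858 and 24778944. Levels below are CPM, counts scaled by the library total and edgeR's TMM factor, and the floor of 3 counts lay between 0.118 and 0.267 CPM. Hypoxia replicates 2 and 3 (hypoxia 2 and 3) lay far from the rest: they scored 126 and 105 on a first principal component that held 76.2% of the variance, where hypoxia 1 scored 11.8 and the 9 libraries of the other groups between -51.6 and -8.95. The share of counts in ribosomal protein genes was 9.89% and 8.54% there and 3.16% to 5.04% in the other 10. Marker sums moved with the same 2 libraries. The 17 endothelial markers (15 tested, CLDN5 and EMCN at 0) summed to 9338 and 8392 CPM against 4821 to 5627 CPM, and the 13 epithelial markers (5 tested, with CDH1, ESRP1 and NKX2-1 at 0) to 18252 and 15630 CPM against 5522 to 7768 CPM. The 11 fibroblast and mural markers (3 tested, COL3A1 and DCN at 0) summed to 45.8 and 53.6 CPM against 82.6 to 108 CPM, and the 10 leukocyte markers (2 tested, PTPRC, MS4A1 and NKG7 among those at 0) to 205 and 191 CPM against 149 to 185 CPM. Averaged over the libraries, KRT7 (5399 CPM) made up most of the epithelial sum. RGS5 (73.4 CPM) made up most of the fibroblast and mural sum, and CD68 (163 CPM) most of the leukocyte sum. In bulk libraries fewer cells of a kind and less RNA per cell cannot be told apart. The part of these markers in the results below was not tested, and for the 9 tested genes the changes in hypoxia are also given without hypoxia 2 and 3. The label of the hypoxia libraries was checked on ANGPTL4, a HIF target gene, which stood at 110 to 124 CPM in control, 520 to 1122 CPM in hypoxia, 106 to 124 CPM with TEPA and 317 to 359 CPM with TEPA+hypoxia.

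Divided by the length of the longest annotated transcript, levels in control cells ran in the order CALR, HSPA5, PDIA4, ERO1L, HERPUD1, XBP1, CRELD2, SDF2L1 and DNAJB9. CALR stood at 435 ± 19.5 CPM per kilobase (SD, n = 3), HSPA5 at 375 ± 14.5 and PDIA4 at 248 ± 7.84, above ERO1L at 46.0 ± 4.18 CPM per kilobase. HERPUD1 (32.7 ± 0.257) came before XBP1 (30.3 ± 1.55), and CRELD2 (19.6 ± 2.70) and SDF2L1 (18.1 ± 4.25) did not differ beyond their spread. DNAJB9 was the lowest of the 9 at 7.99 ± 0.558 CPM per kilobase. In hypoxia HSPA5 (519 ± 17.1 CPM per kilobase) stood above CALR (463 ± 53.8), within about the spread of CALR, and SDF2L1 (73.0 ± 36.2) and CRELD2 (46.6 ± 17.0) had higher means than ERO1L (37.1 ± 7.45). That place of SDF2L1 and CRELD2 came from hypoxia 2 and 3. In hypoxia 1 they stood at 31.9 and 27.1 CPM per kilobase, below ERO1L at 45.7, while HSPA5 (503) still stood above CALR (469.9). The low place of HSP90B1 is described with its own values below.

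**Figure D1:**
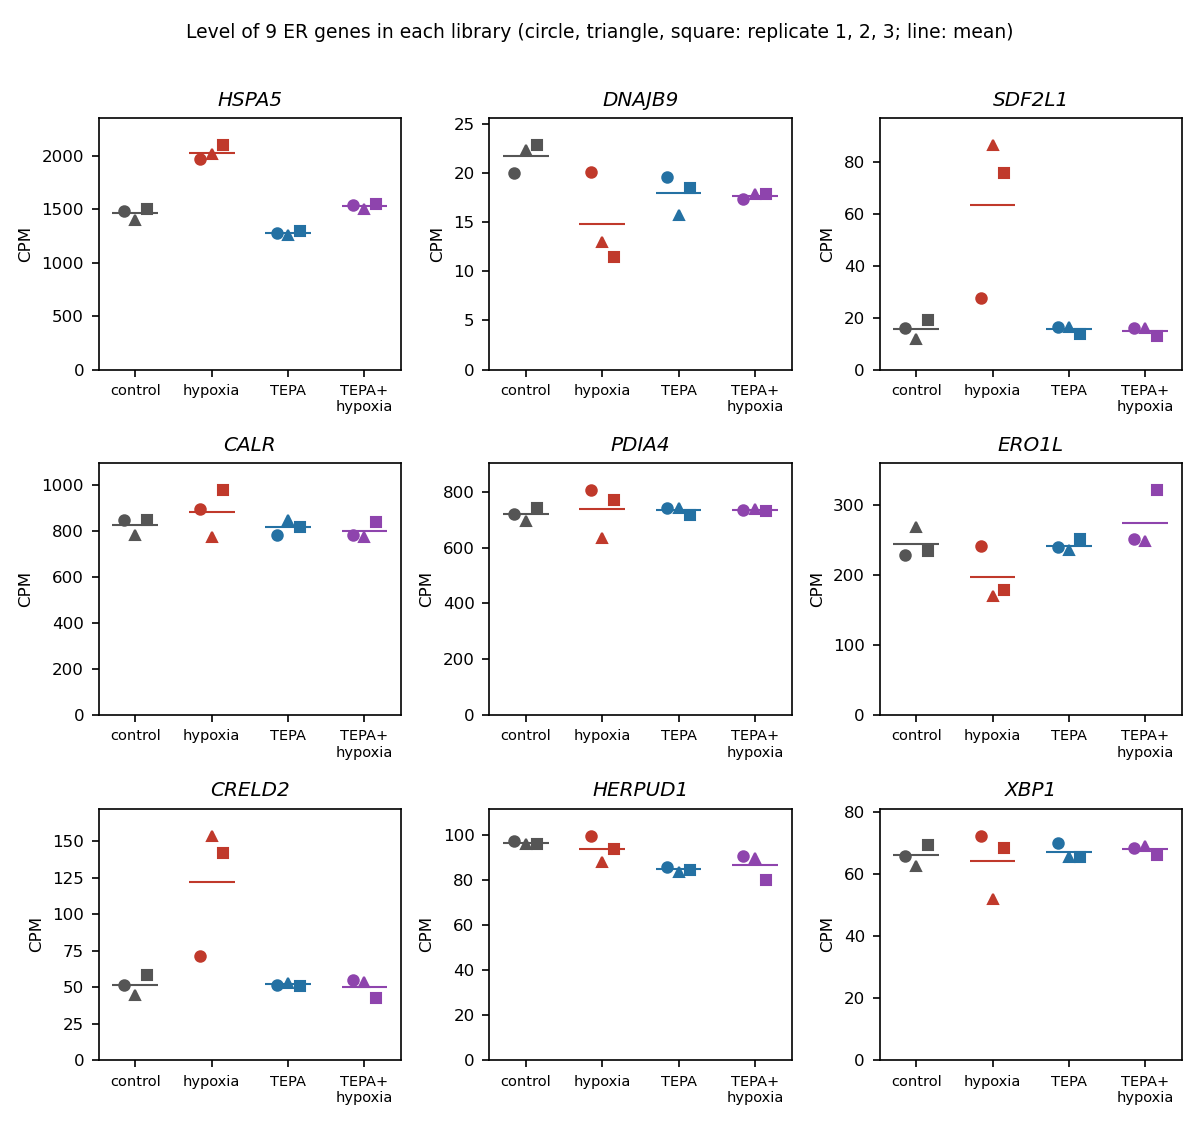
Level of 9 of the genes in each library, in CPM on axes that start at 0, with circles, triangles and squares for replicates 1, 2 and 3 and a line at the group mean. HSPA5 was at 1967 to 2100 CPM in all 3 hypoxia libraries, while SDF2L1 and CRELD2 were highest in hypoxia 2 and 3.

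HSPA5 encodes BiP, the HSP70 chaperone of the ER lumen, which also holds the stress sensors inactive. It lies on the minus strand of chromosome 9 from 125234853 to 125241330 in GRCh38. Its level was 1486, 1400 and 1507 CPM in control 1 to 3 and 1967, 2020 and 2100 CPM in hypoxia 1 to 3. With TEPA it was 1278, 1256 and 1299 CPM, and with TEPA+hypoxia it was 1541, 1502 and 1553 CPM. Every hypoxia library stood above every library of the other groups, and every TEPA library stood below all the others. HSPA5 rose in hypoxia by 0.47 ± 0.08 on the log2 scale (SE; edgeR quasi-likelihood F-test with Benjamini-Hochberg adjustment over 14447 genes, adjusted p = 0.00601, 3 of 3 libraries higher). Without hypoxia 2 and 3, where hypoxia 1 alone stands for its group and is assumed to vary like the others, the change was 0.43 (adjusted p = 0.0302 by edgeR). It was called in 20 of 21 alternative fits; with only the 2 groups compared in the fit, the change was 0.47 at an adjusted p of 0.0582. When GC content and transcript length were corrected for, it was 0.84 (adjusted p = 0.00389 by edgeR).

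With TEPA present, HSPA5 was 0.26 ± 0.08 higher on the log2 scale in hypoxia than at normal oxygen, a difference that did not pass the test over all 12 libraries (edgeR adjusted p = 0.342) although the 3 libraries of each group did not overlap. It passed without hypoxia 2 and 3 (0.28, adjusted p = 0.0226), without hypoxia 1 (0.27, adjusted p = 0.0406), with only the groups compared (0.27, adjusted p = 0.0279) and with DESeq2 (0.25, adjusted p = 0.00305). In TEPA+hypoxia against hypoxia alone the log2 change was -0.41 ± 0.08 (edgeR adjusted p = 0.00221), and this fall was called in 21 of 21 alternatives, at -0.35 without hypoxia 2 and 3 (adjusted p = 0.0186) and at -0.77 with the GC and length correction (adjusted p = 0.00248). At normal oxygen TEPA gave -0.20 ± 0.08 against control (adjusted p = 1.00 by edgeR), with no overlap between the libraries. The difference between the response to hypoxia with and without TEPA, the interaction, was -0.21 ± 0.11 for HSPA5, with a 95% interval from -0.45 to 0.03 (edgeR adjusted p = 0.136), and -0.15 without hypoxia 2 and 3 (adjusted p = 0.319). It was -0.60 with the GC and length correction (adjusted p = 0.0326) and -0.22 with DESeq2 (adjusted p = 0.0185).

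The partners of BiP moved in different directions. SDF2L1 encodes an ER protein that forms complexes with J-domain proteins and BiP, and it lies on chromosome 22 from 21642261 to 21644298. Its level was 16.1, 11.8 and 19.1 CPM in control 1 to 3 and 27.6, 86.3 and 75.6 CPM in hypoxia 1 to 3. It was 16.4, 16.4 and 13.6 CPM with TEPA and 15.9, 16.1 and 12.9 CPM with TEPA+hypoxia. All hypoxia libraries were above all others, with hypoxia 1 far below the other two. SDF2L1 rose in hypoxia by 2.01 ± 0.34 (log2; edgeR adjusted p = 0.00601), but by 0.81 at an adjusted p of 0.0837 without hypoxia 2 and 3, and by 0.60 (adjusted p = 0.00622) with the GC and length correction. With only the groups compared its adjusted p was 0.0582. From hypoxia alone to TEPA+hypoxia the log2 change was -2.07 ± 0.34 (edgeR adjusted p = 0.00217), a fall called in 21 of 21 alternatives. It was -0.87 without hypoxia 2 and 3 (adjusted p = 0.0235) and -0.53 with the GC and length correction (adjusted p = 0.00359). With TEPA present, hypoxia gave a change of -0.05 ± 0.34, with a 95% interval from -0.79 to 0.69.

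DNAJB9 encodes ERdj4, a J-domain co-chaperone of BiP, on chromosome 7 from 108569568 to 108574850. Its first 183 bases overlap exons of THAP5 on the other strand, and how the counting treated strand is not given in the sources used here. Its level was 19.98, 22.3 and 22.8 CPM in control, 20.1, 12.9 and 11.5 CPM in hypoxia, 19.6, 15.7 and 18.5 CPM with TEPA, and 17.4, 17.8 and 17.9 CPM with TEPA+hypoxia. Hypoxia 2 and 3 were the lowest of the 12 libraries, while hypoxia 1 lay within the control range. DNAJB9 fell by 0.54 ± 0.18 in hypoxia (log2; edgeR adjusted p = 0.0265). The call rested on few libraries: the change was -0.11 (adjusted p = 0.672) without hypoxia 2 and 3, -0.46 (0.0914) without hypoxia 2, -0.40 (0.102) without hypoxia 3, -0.53 (0.0717) without control 2 and -0.51 (0.0664) without control 3, all as edgeR adjusted p. With the GC and length correction it was -0.32 (adjusted p = 0.0642), and with only the groups compared -0.55 (0.103). TEPA+hypoxia differed from hypoxia by 0.25 ± 0.18, which did not pass the test with all libraries (edgeR adjusted p = 0.255), and by 0.56 without hypoxia 1 (adjusted p = 0.00116). The sign turned without hypoxia 2 and 3, to -0.17 (adjusted p = 0.431).

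The lumenal chaperones CALR and HSP90B1 gave no call. CALR encodes calreticulin, a lectin chaperone that binds calcium, on chromosome 19 from 12938578 to 12944489, where its last exon overlaps the antisense gene AC092069.1 over 270 bases. Its level was 848, 785 and 850 CPM in control, 894, 773 and 977 CPM in hypoxia, 783, 849 and 818 CPM with TEPA, and 783, 773 and 840 CPM with TEPA+hypoxia. The 4 groups overlapped. Hypoxia gave a log2 change of 0.09 ± 0.10 with a 95% interval from -0.12 to 0.31 (edgeR adjusted p = 0.441), and 0.11 without hypoxia 2 and 3 (adjusted p = 0.456). With the GC and length correction the direction turned, to -0.44 against control (adjusted p = 0.0349) and to 0.48 for TEPA+hypoxia against hypoxia (adjusted p = 0.0214), where the fit without it gave -0.14 ± 0.10.

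HSP90B1 encodes GRP94, the HSP90 chaperone of the ER, which secretory cells make in large amounts. In the count table it had 9, 6 and 4 counts in control 1 to 3, 2, 0 and 1 in hypoxia, 6, 8 and 6 with TEPA, and 8, 12 and 11 with TEPA+hypoxia, 73 in all. These values lay near the floor of 3 counts, so it did not pass the filter on low counts and gets no fold change. In GRCh38 the gene runs on chromosome 12 from 103930107 to 103953645 (GENCODE 29). The microRNA gene MIR3652, 131 bases from 103930425 to 103930555, lies inside its exons on the same strand, from base 16 after the RefSeq start of HSP90B1, and was looked up after the counts of HSP90B1 had been seen. The MIR3652 row held 86.5, 71.8 and 68.8 CPM in control, 70.9, 11.02 and 18.9 CPM in hypoxia, 85.7, 73.1 and 73.2 CPM with TEPA, and 82.7, 94.0 and 98.3 CPM with TEPA+hypoxia. It was therefore lowest in hypoxia 2 and 3, and far above the HSP90B1 row in every library. Reads of the host and of the microRNA gene cannot be told apart here, so the HSP90B1 row is not read as the level of its messenger RNA. CANX, the membrane-bound partner of calreticulin, had 4 counts in all 12 libraries together. It shares 150 exonic bases with CBY3 on the other strand, and how reads shared by 2 genes were counted is not given in the sources used here, so this row too is not read as a level.

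Among the enzymes of disulphide bond formation, PDIA4 gave no call and the sign of ERO1L depended on the fit. PDIA4, a protein disulphide isomerase also called ERp72, lies on chromosome 7 from 149003062 to 149028641. It stood at 723, 697 and 742 CPM in control, 806, 635 and 773 CPM in hypoxia, 744, 744 and 717 CPM with TEPA, and 736, 741 and 731 CPM with TEPA+hypoxia. The hypoxia libraries spread on both sides of all the others. The log2 change was 0.03 ± 0.10 in hypoxia (95% interval from -0.17 to 0.24) and 0.00 ± 0.10 for TEPA+hypoxia against TEPA (95% interval from -0.21 to 0.21). In hypoxia it was 0.16 without hypoxia 2 and 3 (edgeR adjusted p = 0.233) and -0.16 with the GC and length correction (adjusted p = 0.216).

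ERO1L, now named ERO1A, encodes the oxidase that passes disulphide bonds to the isomerases and is widely described as induced by hypoxia. It lies on chromosome 14 from 52639916 to 52695900 and overlaps the antisense gene AL133453.1 over 581 exonic bases. Its level was 228, 269 and 233 CPM in control, 241, 169 and 178 CPM in hypoxia, 239, 235 and 251 CPM with TEPA, and 251, 249 and 320 CPM with TEPA+hypoxia. Hypoxia 2 and 3 were the lowest 2 libraries and TEPA+hypoxia 3 the highest. Hypoxia gave -0.31 ± 0.15 on the log2 scale, which did not pass the test (edgeR adjusted p = 0.0885), and -0.01 without hypoxia 2 and 3 (adjusted p = 0.970). Without hypoxia 1 it was -0.51 (adjusted p = 0.000435). With the GC and length correction the sign turned, to 0.38 (adjusted p = 0.00703). TEPA+hypoxia was above hypoxia by 0.48 ± 0.15 (edgeR adjusted p = 0.0152). That call was lost without hypoxia 2 (0.39, adjusted p = 0.0543), without hypoxia 3 (0.42, 0.0594), without TEPA+hypoxia 3 (0.35, 0.0740), without both hypoxia 2 and 3 (0.19, 0.342) and with only the groups compared (0.48, 0.0776), and with the GC and length correction its sign was opposite (-0.29, adjusted p = 0.0130). TEPA+hypoxia against TEPA gave 0.18 ± 0.15, with a 95% interval from -0.14 to 0.50.

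CRELD2 encodes a cysteine-rich protein of the ER and is known as a gene induced by ER stress. It lies on chromosome 22 from 49918167 to 49927540 and shares 168 exonic bases with ALG12 on the other strand. Its level was 51.3, 44.3 and 58.4 CPM in control, 71.0, 154 and 141 CPM in hypoxia, 51.4, 53.0 and 51.0 CPM with TEPA, and 54.8, 53.3 and 42.5 CPM with TEPA+hypoxia. As for SDF2L1, each hypoxia library was above the 9 others and hypoxia 1 was the lowest of the 3. CRELD2 rose in hypoxia by 1.25 ± 0.24 (log2; edgeR adjusted p = 0.00601), by 0.47 without hypoxia 2 and 3 (adjusted p = 0.129) and by 0.85 with the GC and length correction (adjusted p = 0.00622). With only the groups compared its adjusted p was 0.0582. From hypoxia alone to TEPA+hypoxia it changed by -1.28 ± 0.24 (edgeR adjusted p = 0.00217), by -0.49 without hypoxia 2 and 3 (adjusted p = 0.0507) and by -0.82 with the GC and length correction (adjusted p = 0.00303). With TEPA present, hypoxia gave -0.05 ± 0.23, with a 95% interval from -0.56 to 0.47.

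HERPUD1 and XBP1 stand for degradation and for signalling. HERPUD1 encodes a membrane protein of ER-associated degradation, on chromosome 16 from 56932048 to 56944863. It stood at 97.2, 95.9 and 96.0 CPM in control, 99.7, 88.0 and 93.9 CPM in hypoxia, 86.0, 83.7 and 84.6 CPM with TEPA, and 90.9, 89.6 and 80.1 CPM with TEPA+hypoxia. All 3 TEPA libraries were below all 3 control libraries. Hypoxia gave -0.04 ± 0.09 (95% interval from -0.23 to 0.15) and TEPA at normal oxygen -0.19 ± 0.09 (95% interval from -0.37 to 0.00; adjusted p = 1.00 by edgeR). The change in hypoxia was 0.05 without hypoxia 2 and 3 (edgeR adjusted p = 0.809) and 0.03 with the GC and length correction (adjusted p = 0.695).

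XBP1 encodes the transcription factor whose messenger RNA is spliced by IRE1 during ER stress, on chromosome 22 from 28794555 to 28800597. Counts per gene do not separate its spliced and unspliced forms. Its level was 65.7, 62.6 and 69.4 CPM in control, 72.3, 51.7 and 68.3 CPM in hypoxia, 69.9, 65.5 and 65.3 CPM with TEPA, and 68.4, 69.1 and 66.2 CPM with TEPA+hypoxia. The groups overlapped, with hypoxia 1 the highest and hypoxia 2 the lowest library of the 12. Hypoxia gave -0.04 ± 0.12 (95% interval from -0.30 to 0.22), and the 3 other pairwise comparisons gave between 0.02 and 0.08, none of which passed the test. The change in hypoxia was 0.13 without hypoxia 2 and 3 (edgeR adjusted p = 0.453), and with the GC and length correction it was 0.01 (adjusted p = 0.930).

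**Figure D2:**
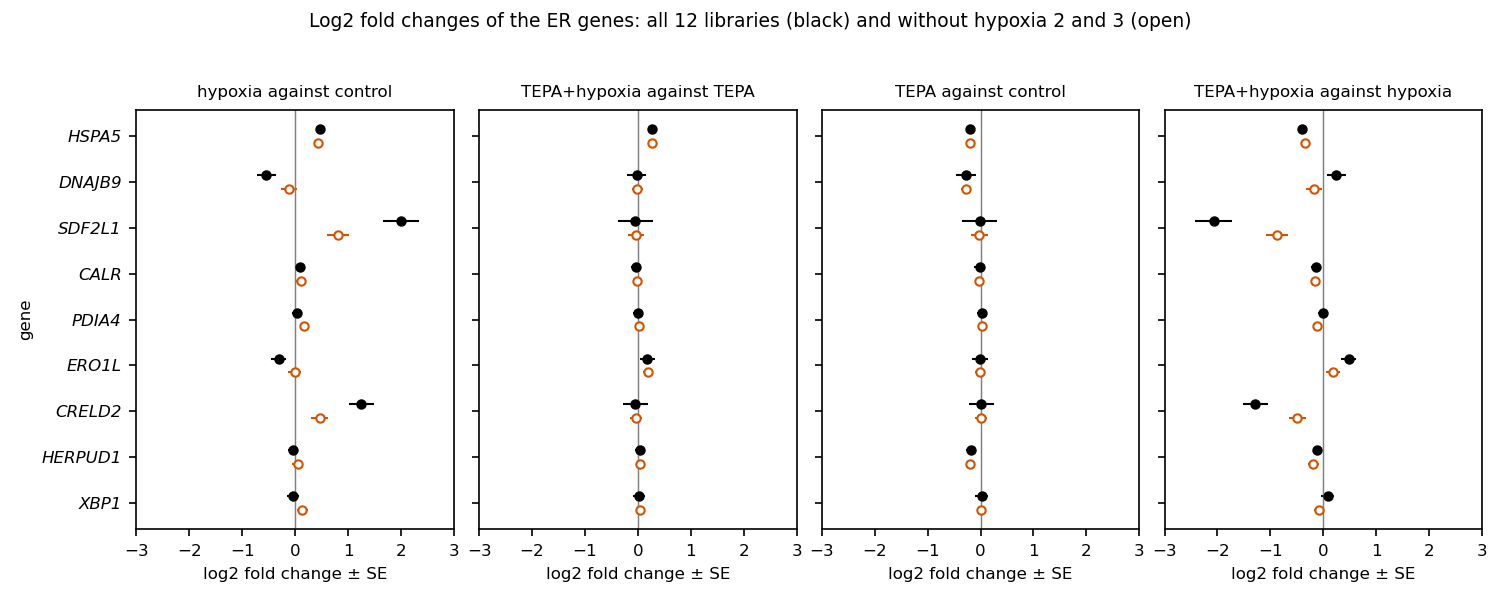
Log2 fold changes with their SE for 9 genes in the 4 pairwise comparisons, fitted on all 12 libraries (black) and without hypoxia 2 and 3 (open). SDF2L1 moved from 2.01 to 0.81 and CRELD2 from 1.25 to 0.47 in hypoxia against control, whereas HSPA5 moved from 0.47 to 0.43.

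Counted together, 9 of the 10 genes were tested. In hypoxia against control 3 were called higher (HSPA5, SDF2L1 and CRELD2) and 1 lower (DNAJB9), at a background of 57.2% of all 14447 tested genes called, 29.4% higher and 27.8% lower; the share of the 9 genes called was thus no larger than that of all genes. Their median log2 change was 0.03, against -0.01 for all tested genes. Those 3 genes also showed no overlap between hypoxia and control libraries with the hypoxia libraries higher, which held for 27.4% of all tested genes (28.2% in the other direction). Without hypoxia 2 and 3, HSPA5 was the 1 gene of the 10 called higher and none was called lower, and 0.513% of the genes tested were called. In TEPA+hypoxia against hypoxia 3 genes were called lower (HSPA5, SDF2L1 and CRELD2) and 1 higher (ERO1L), where 30.6% and 30.9% of all genes were (61.5% called in all). The libraries did not overlap for the same 4 genes, against 30.5% of all genes for lower and 32.2% for higher. Without hypoxia 2 and 3, HSPA5 and SDF2L1 were called lower and 15.2% of the genes tested were called. These 2 comparisons share the hypoxia libraries.

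In TEPA+hypoxia against TEPA, hypoxia 2 and 3 are not among the libraries compared. They still enter through the shared estimate of the spread, the filter on low counts, the TMM scaling and the adjustment. In this comparison 0 of the 9 genes were called by edgeR and 0.0969% of all genes were (0.0623% higher and 0.0346% lower). HSPA5 was the 1 gene of the 9 with an unadjusted p under 0.05 by edgeR, which 1110 of all 14447 genes had. DESeq2 called HSPA5. It was also the 1 gene of the 9 whose TEPA+hypoxia libraries were all higher than the TEPA libraries, which held for 12.5% of all tested genes (18.0% for lower). The share of genes called was 2.17% once hypoxia 2 and 3 were left out. The median log2 change of the 9 was 0.00, as over all tested genes. In TEPA against control, edgeR called 0 of the 9 genes and 0 of all genes, with 1 of the 9 (HSPA5) and 289 of all genes at an unadjusted p under 0.05; DESeq2 called 6 genes, none of the 9 among them. HSPA5, DNAJB9 and HERPUD1 were lower in all 3 TEPA libraries than in all 3 control libraries, 3 of 9 genes where 6.92% of all tested genes were (6.64% for higher). When hypoxia 2 and 3 were left out, 0.0263% of genes were called and 0 of the 10. For DNAJB9 this change was -0.27 ± 0.18 with a 95% interval from -0.67 to 0.12.

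The interaction asks whether the response to hypoxia differed with TEPA. It was called for SDF2L1 (-2.05 ± 0.48) and CRELD2 (-1.30 ± 0.33), both lower with TEPA at an edgeR adjusted p of 0.0236, where 21.5% of all genes were called lower and 17.3% higher. Without hypoxia 2 and 3 the values were -0.85 (adjusted p = 0.0848) and -0.50 (0.128), and no gene at all was called. Both calls were also lost when control 1, control 2, hypoxia 3, TEPA 2 or TEPA+hypoxia 3 was left out, with edgeR adjusted p between 0.0559 and 0.0663 and values from -2.07 to -1.88 for SDF2L1 and from -1.29 to -1.16 for CRELD2. For ERO1L the interaction was 0.49 ± 0.21 (edgeR adjusted p = 0.0753) and for DNAJB9 0.52 ± 0.26 (0.117); without hypoxia 1 they were 0.69 (adjusted p = 0.000429) and 0.83 (0.000416).

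The change in hypoxia moved with the GC content of a gene, and libraries of the same group also differed along it. The Spearman correlation of GC content with log2 CPM less the control mean was -0.17, -0.42 and 0.47 in control 1 to 3. It was 0.37, 0.51 and 0.53 in hypoxia 1 to 3, and 0.16, 0.37 and 0.01 with TEPA. With TEPA+hypoxia it was -0.0011, -0.06 and -0.35. These correlations do not give the size of a trend. The tested genes were ordered by the GC content of their longest transcript and cut into 10 groups of equal size, and the median log2 change in hypoxia against control went from -0.57 in the group of lowest GC to 0.83 in that of highest. The medians of these groups ran from -0.17 to 0.23 once hypoxia 2 and 3 were left out. SDF2L1, at 65.5% GC, belonged to the highest group and stood above its median by more than 1 on the log2 scale. CRELD2, CALR and PDIA4 shared a group whose median was 0.19, and of these CRELD2 alone lay above its interquartile range of -0.31 to 0.66. HSPA5, at 46.0% GC, stood at 0.47 where its group had a median of -0.16 and an interquartile range of -0.66 to 0.30. HERPUD1 (-0.04) was in that group too. DNAJB9 (40.4% GC, -0.54) and ERO1L (38.7% GC, -0.31) lay in a group with a median of -0.53, and XBP1 (41.5% GC, -0.04) in one with a median of -0.39. When hypoxia 2 and 3 were left out, SDF2L1 (0.81), CRELD2 (0.47) and HSPA5 (0.43) again lay above the interquartile ranges of their groups, whose upper ends were 0.39, 0.23 and 0.15. The part of GC content in these changes was not tested beyond the corrected fits given with each of the 9 genes.

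**Figure D3:**
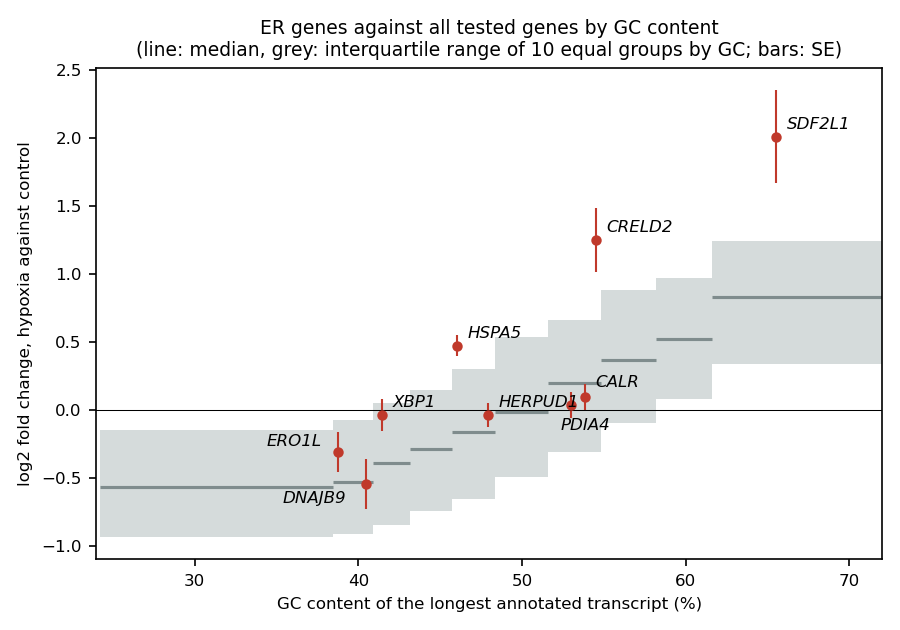
Log2 fold change in hypoxia against control of 9 ER genes (red, with SE) against the GC content of the longest annotated transcript in percent, over the median (line) and interquartile range (grey) of all tested genes in 10 groups of equal size by GC. HSPA5, CRELD2 and SDF2L1 lie above the grey range of their groups, and the other 6 lie within it.

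The genes whose pattern was most like that of HSPA5 over the 12 libraries, by root mean square difference in log2 CPM from the control mean among 10112 genes with a mean of at least 5 CPM, were RWDD3 (0.0942), KANSL2 (0.0969), CACYBP (0.0972), CHCHD4 (0.0986) and PGM1 (0.101). All 5 lay outside the gene lists used here. Within the set of 10 genes alone, CALR came nearest to HSPA5, at 0.232, and SDF2L1 was the farthest of those tested, at 0.808. The distances of the further ER genes described below are not given here. With hypoxia 2 and 3 left out, these same 5 genes, chosen over all 12 libraries, lay at 0.0839 to 0.104. The other genes were not ranked again without those libraries. Within the set, PDIA4 then came nearest at 0.153 (CALR at 0.158) and DNAJB9 was the farthest at 0.277 (SDF2L1 at 0.252).

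The rest of the pathway was described over 117 further genes in 10 lists, of which 112 were tested. BHLHA15, PDIA2, GPX7, CANX and SRPRB did not pass the filter on low counts. SRPRB was also absent from the fit with no filter, which kept every row with any count. Its row, like that of CANX, is not read as a level. In hypoxia against control 46 were higher and 34 lower, with a median of 0.05 against -0.01 for all tested genes. These are 41.1% and 30.4% of the 112 (71.4% called), beside 29.4% and 27.8% of all tested genes (57.2% called). The counts in hypoxia of each list below, lists of 6 to 21 tested genes, are to be read beside the same shares of all genes. MANF, which was higher, was the 1 gene of the 112 called without hypoxia 2 and 3 (0.893%, beside 0.513% of all genes). In TEPA+hypoxia against TEPA and in TEPA against control 0 of the 112 passed by edgeR, with 7 and 1 at an unadjusted p under 0.05. Among all 14447 tested genes 1110 and 289 had an unadjusted p under 0.05. In TEPA+hypoxia against hypoxia 39 were higher and 46 lower (75.9% called, beside 61.5% of all genes), and without hypoxia 2 and 3 these counts were 8 and 14 (19.6% called, beside 15.2%). The interaction was called higher for 23 and lower for 35, 51.8% of the 112 beside 38.8% of all genes, and for none without hypoxia 2 and 3.

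Only in the list of sensors, transducers and processing factors of the unfolded protein response did calls go in 1 direction. Of its genes, 6 of 9 tested were lower in hypoxia and 0 higher (27.8% and 29.4% of all genes), with a median of -0.76. ATF6 changed by -0.76 ± 0.24, ERN1 by -1.37 ± 0.33, EIF2AK3 by -1.13 ± 0.32 and MBTPS2, a protease that releases ATF6, by -2.13 ± 0.51. In control 1 to 3 ERN1 stood at 7.92, 11.8 and 6.49 CPM, and in hypoxia 1 to 3 at 4.40, 3.09 and 2.49 CPM. None of the list passed without hypoxia 2 and 3 (ATF6 -0.22, ERN1 -0.99, EIF2AK3 -0.40 and MBTPS2 -1.07). With the GC and length correction ATF6 gave -0.04 (edgeR adjusted p = 0.833), while ERN1 (-0.95, adjusted p = 0.0168), EIF2AK3 (-0.68, 0.0228) and MBTPS2 (-1.63, 0.00808) were called lower.

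In the arm below PERK, 3 of 8 genes were higher and 1 lower in hypoxia, where 29.4% and 27.8% of all genes were. ATF4, its transcription factor, changed by 0.48 ± 0.15 (edgeR adjusted p = 0.0179) but by 0.07 without hypoxia 2 and 3 and by -0.20 with the GC and length correction. DDIT3, which encodes the factor CHOP, rose by 1.24 ± 0.22, from 11.7, 10.9 and 13.3 CPM in control to 18.1, 35.6 and 31.1 CPM in hypoxia, and by 0.59 without hypoxia 2 and 3 (adjusted p = 0.116). With the GC and length correction DDIT3 rose by 0.62 in hypoxia (edgeR adjusted p = 0.00622). With TEPA present, it stood at 10.4, 10.2 and 10.6 CPM at normal oxygen and at 17.7, 17.6 and 12.7 CPM in hypoxia. This change of 0.62 ± 0.22 did not pass the main test (edgeR adjusted p = 0.511), but passed without hypoxia 2 and 3 (0.63). It also passed with only the groups compared (0.63, edgeR adjusted p = 0.0412) and with the GC and length correction (0.72, edgeR adjusted p = 0.0388). It did not pass when that correction was joined with the replicate block. The other 2 of the 112 genes called there without hypoxia 2 and 3 were ATF3 (0.61) and CHAC1 (0.92), in the same arm and both named after their values were seen.

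Among the chaperones and exchange factors 5 of 12 were higher and 4 lower in hypoxia, beside 29.4% and 27.8% of all genes. MANF, a small secreted ER protein induced by stress, stood at 84.1, 76.9 and 96.0 CPM in control and at 140, 285 and 247 CPM in hypoxia, then at 84.7, 85.0 and 82.3 CPM with TEPA and 90.5, 98.0 and 84.0 CPM with TEPA+hypoxia. Its hypoxia libraries were above all the others. It rose by 1.39 ± 0.21 in hypoxia and fell by 1.30 ± 0.21 in TEPA+hypoxia against hypoxia, and both calls held without hypoxia 2 and 3 (0.71 at an adjusted p of 0.0277 and -0.62 at 0.0183). HYOU1, a large HSP70-like exchange factor, gave -0.02 ± 0.10 (0.19 without hypoxia 2 and 3, edgeR adjusted p = 0.184), and SIL1, another exchange factor for BiP, gave 1.61 ± 0.34 (0.37 without hypoxia 2 and 3). DNAJC3 was called lower from a control level at or under 1.0 CPM, and was not called without hypoxia 2 and 3 (-1.40, adjusted p = 0.211).

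Among the disulphide isomerases 8 of 13 tested were higher and 4 lower in hypoxia, where 29.4% and 27.8% of all genes were. P4HB, the founding isomerase, rose by 0.65 ± 0.14, PDIA3 by 0.20 ± 0.08 and PDIA6 by 0.22 ± 0.07, while TXNDC5 fell by 1.26 ± 0.39. None of the 4 was called without hypoxia 2 and 3, where they gave 0.25, 0.15, 0.20 and -0.41. With the GC and length correction P4HB gave 0.08 and its call was lost (edgeR adjusted p = 0.264), while PDIA3 (0.62, adjusted p = 0.00622), PDIA6 (0.31, 0.00630) and TXNDC5 (-1.34, 0.0189) were called. Of 6 oxidases and peroxidases tested, 3 were higher and 1 lower, beside the same shares of all genes. ERO1LB, the paralogue of ERO1L, gave -0.49 ± 0.35 at 0.4 to 1.6 CPM.

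In the lists for glycan quality control (3 of 8 higher, 3 lower), ER-associated degradation (8 of 21 higher, 7 lower), entry into the ER (8 of 16 higher, 3 lower), prolyl isomerases (4 of 7 higher, 2 lower) and calcium handling (4 of 12 higher, 3 lower), calls also went both ways. Of all tested genes 29.4% were higher and 27.8% lower. UGGT1, the sensor of misfolded glycoproteins, changed by -2.43 ± 0.52 and SEL1L, a core part of the degradation ligase, by -0.67 ± 0.20. At the upper end stood the prolyl isomerases FKBP2 (1.89 ± 0.34) and PPIB (1.39 ± 0.27) and the entry factors SSR4 (1.45 ± 0.32) and SEC61G (1.43 ± 0.27). All 6 missed the threshold once hypoxia 2 and 3 were left out. EDEM3, which trims glycans for degradation, was among the 5 highest in TEPA+hypoxia against hypoxia, at 1.23 ± 0.27, and gave 0.65 without hypoxia 2 and 3 (edgeR adjusted p = 0.0604) and 0.38 with the GC and length correction (adjusted p = 0.0152).

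**Figure D4:**
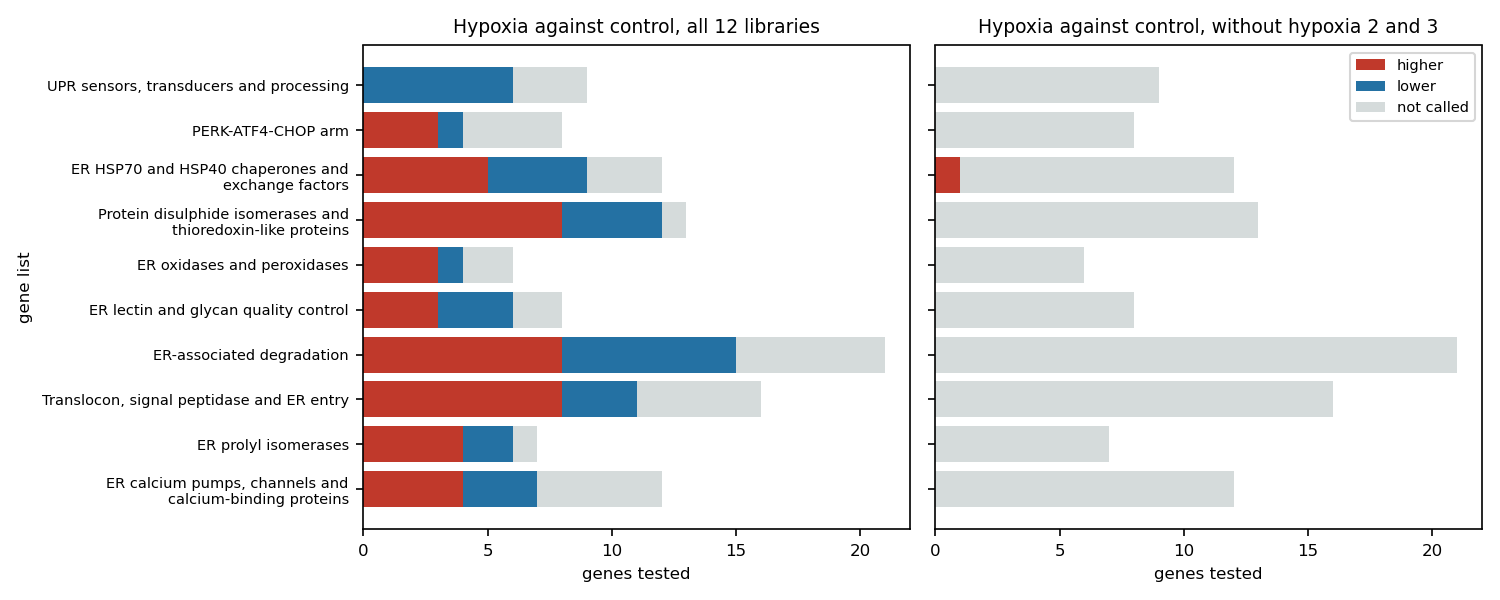
Number of tested genes called higher (red), called lower (blue) and not called (grey) in hypoxia against control, for 10 lists of other ER genes, on all 12 libraries (left) and without hypoxia 2 and 3 (right). On all libraries 46 of 112 were higher and 34 lower; on the right 1 gene, MANF, is called.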

How the data were processed

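Per the labels' protocols, TRIzol was used for extraction and poly(A)-selected RNA went into directional libraries. The submitters' processing notes name HISAT2 2.1.0, GRCh38 and DESeq; the counter, its annotation and its use of strand were not given. The authors deposited raw counts per gene symbol, 1 column per library.

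The main test used edgeR 4.0.16 in R 4.3.3: filterByExpr by group (14447 genes, holding 99.9% of counts), TMM scaling, 1 mean per group over all 12 libraries, and a two-sided quasi-likelihood F-test. Calls were made at an adjusted p (Benjamini-Hochberg) under 0.05. SE and 95% intervals come from that fit. The main fit was also run on simulated data. The outcome of that run is not given here, so it is not used as evidence for any call. It cannot decide whether calls hold where the hypoxia libraries differ widely among themselves. Whether replicates came from separate cultures is not stated, so p-values measure only the spread between these libraries, which may be technical. Floors cover counting error only.

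The alternatives were RLE scaling, no filter, DESeq2 1.42.0, limma-voom (limma 3.58.1), the replicate block, only the groups compared, each library left out, no hypoxia 2 and 3, and a GC and transcript length correction (splines with 4 degrees of freedom per library). Coordinates, lengths and GC come from GENCODE 29, which may differ from the authors' annotation, and promoters from RefSeq GRCh38.p14.

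Named genes were the 10 genes, 14 fixed others, and per comparison up to 5 called ER genes each way with a mean of at least 5 CPM. The genes and lists were chosen with earlier results of these data known.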

Additional observations from a re-analysis of the deposited data

Results flagged for a closer look

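The response to hypoxia differed between cells with and without TEPA for SDF2L1 and CRELD2, by the test of the interaction. The same test called 38.8% of all tested genes, 21.5% lower and 17.3% higher. Both calls were lost when control 1, control 2, hypoxia 3, TEPA 2 or TEPA+hypoxia 3 was left out. For SDF2L1 the response was 2.01 ± 0.34 without TEPA and -0.05 ± 0.34 with it, a difference of -2.05 (log2; edgeR adjusted p = 0.0236). For CRELD2 it was 1.25 ± 0.24 without TEPA and -0.05 ± 0.23 with it, a difference of -1.30 at the same adjusted p. Hypoxia 1 moved in the same direction as hypoxia 2 and 3 in both genes but less far, and without hypoxia 2 and 3 the differences were -0.85 (adjusted p = 0.0848) and -0.50 (0.128). With the GC and length correction they were -0.46 (adjusted p = 0.0557) and -0.82 (0.0350).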

How the results depend on the processing

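RLE scaling and limma-voom left the total of calls over all genes, both directions together, within 1.5 times that of the main test in each comparison, and the calls of these 10 genes each way at the same numbers. With no filter HSP90B1 entered the test, and 2 of the 10 genes were called higher in TEPA+hypoxia against hypoxia and 1 in the interaction, HSP90B1 being the added one. DESeq2 called 145 genes in TEPA+hypoxia against TEPA, 1 of the 10 (HSPA5) among them, and 6 in TEPA against control. With only the groups compared, 0 genes were called in hypoxia against control (0 of the 10 either way), 355 in TEPA+hypoxia against TEPA (1 of the 10, HSPA5), 7 in TEPA against control and 5199 in TEPA+hypoxia against hypoxia, where 0 of the 10 were higher. Fewer libraries then set the spread. In hypoxia against control the smallest adjusted p was 0.0582 by edgeR, with 6939 genes at an unadjusted p under 0.05.

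Without hypoxia 2 and 3 the calls over all genes were 78 in hypoxia against control (of the 10, 1 higher and 0 lower), 329 in TEPA+hypoxia against TEPA (1 higher), 4 in TEPA against control, 2303 in TEPA+hypoxia against hypoxia (0 higher) and 0 for the interaction (0 lower). Leaving out 1 library at a time gave 5114 to 10623 calls in hypoxia against control (0 to 3 of the 10 lower), 0 to 254 in TEPA+hypoxia against TEPA (0 to 1 higher), 0 to 5 in TEPA against control, 0 to 3 of the 10 higher in TEPA+hypoxia against hypoxia, and 0 to 9758 for the interaction (0 to 3 higher, 0 to 2 lower). The most calls over all genes came without hypoxia 1, and HSP90B1 was tested in some of these fits.

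The correction for GC and length gave 33 calls in TEPA+hypoxia against TEPA and 2610 for the interaction. It turned ERO1L (0.38), CALR (-0.44), ATF4 (-0.20) and SEL1L (0.12) in hypoxia against control, ERO1L (-0.29), CALR (0.48) and ATF6 (-0.0042) in TEPA+hypoxia against hypoxia, and ATF4 (0.19) and SEL1L (-0.042) in the interaction. Joined with the replicate block it gave 7 calls in TEPA+hypoxia against TEPA and 0 for the interaction (0 of the 10 lower), and turned ERO1L (0.378), CALR (-0.455), ATF4 (-0.196) and SEL1L (0.122) in hypoxia against control, ERO1L (-0.289) and CALR (0.496) in TEPA+hypoxia against hypoxia, and ATF4 (0.186) and SEL1L (-0.0403) in the interaction. Beyond the corrections' own construction, the cause was not tested.

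No pairing by replicate number was seen: over 18 same-numbered pairs the correlation of their deviations ran from -0.36 to 0.32, and 6 were over 0.1. Differently numbered pairs reached -0.46 and 0.49. With 3 libraries per group, such correlations cannot exclude cultures or batches shared by number. With the replicate block alone 9 genes were called in TEPA+hypoxia against TEPA, and no call among the 10 genes changed. HSP90B1, at 0 to 12 counts a library, and CANX lay too near the floor to be compared.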
